A study of Mus musculus with 160 samples.

Results

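The genes described here are 10 regulators and receptors of early lymphoid and innate lymphoid cells (ILCs): *Tcf7*, *Lef1*, *Bcl11b*, *Id2*, *Tox*, *Zbtb16*, *Icos*, *Rag1*, *Rag2* and *Ikzf3*. They were chosen by name, and their rows were found in the count table through the Ensembl identifiers paired with these symbols by GENCODE. All 10 were found among the 46078 genes of the table. Smart-seq2, which makes full-length cDNA from small numbers of cells, was run on 160 pools of 20 cells sorted from the mouse aorta-gonad-mesonephros (AGM) region, the embryonic site where haematopoietic stem cells first form. Each of 8 populations had 20 pools, and all but 7 of the 160 passed the study's limits on depth and quality.

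Every embryo was heterozygous for *Gata3*-GFP (genotype *Gata3*-GFP +/-), a reporter of the transcription factor gene *Gata3*, so no population came from embryos without the reporter allele. Fractions with and without the reporter's fluorescence, *Gata3*-GFP+ and *Gata3*-GFP-, are written GFP+ and GFP- below. At E10.5, endothelial cells (ECs) were sorted as Cdh5+ cells negative for CD41 and CD45, and haematopoietic cells (HCs) by CD41 and CD45, each with or without GFP. The labels give HCs as positive for both markers, while the study's text gives CD41/45+, so the gate may also hold cells with one of them. At E11.5, mesenchymal cells (MCs) were sorted by Pdgfrb and sympathetic nervous system cells (SNS) by Ngfr, again with or without GFP. After the limits there were 20 GFP+ and 20 GFP- HC pools, 19 and 20 EC pools, 20 and 17 MC pools, and 18 and 19 SNS pools. Embryos were pooled. For ECs and HCs the study combined a few biological replicates by population and sorted each again into its 20 pools, so the pools of a population share those replicates and n counts pools, not embryos. The labels do not tie a pool to a replicate, litter or sort, and every p-value below measures the spread between pools only.

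Lymphoid cells arise from haematopoietic progenitors through a small set of transcription factors that act in order. Notch signalling switches on *Tcf7* (TCF-1), which acts with *Gata3* and then *Bcl11b* to set the T cell programme, while *Id2* blocks the E proteins and so favours ILCs over T and B cells. *Zbtb16* (PLZF) and *Tox* mark ILC precursors, *Icos* is a co-stimulatory receptor of T cells and group-2 ILCs, *Rag1* and *Rag2* cut the antigen receptor genes, and *Ikzf3* (Aiolos) acts in later lymphocytes. Several of these factors also work outside blood: *Lef1* and *Tcf7* carry Wnt signals in many tissues, *Id2* answers BMP signals, and *Bcl11b* is used by neurons.

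To show the stretch in front of the genes whose levels are compared below, the 250 bases before the annotated start were read from RefSeq (GRCm38.p6), for which 6 of the 10 genes had an entry (all but *Zbtb16*, *Tox*, *Icos* and *Ikzf3*). *Bcl11b*, *Lef1* and *Id2* are printed because they were higher together in GFP+ HCs, and *Rag1* because it stayed near 0 in the same pools. Letters searched on both strands were AGATAA with its variants AGATAG or TGATAA or else TGATAG for GATA factors, CTTTGAA or the variant CTTTGAT for TCF and LEF factors, and TGTGGT or the variant TGCGGT for RUNX factors. Matches are in capitals, and none overlapped another. Sequences run 5′ to 3′ on the strand of the gene.
Bcl11b (chr12:108003415-108003664, minus strand): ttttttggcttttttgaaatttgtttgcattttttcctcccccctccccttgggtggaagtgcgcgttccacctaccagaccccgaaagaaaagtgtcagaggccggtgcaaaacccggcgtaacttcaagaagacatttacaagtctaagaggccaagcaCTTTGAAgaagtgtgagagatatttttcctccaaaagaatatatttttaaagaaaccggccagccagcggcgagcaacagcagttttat
Lef1, the most upstream of 4 starts (chr3:131110047-131110296, plus strand): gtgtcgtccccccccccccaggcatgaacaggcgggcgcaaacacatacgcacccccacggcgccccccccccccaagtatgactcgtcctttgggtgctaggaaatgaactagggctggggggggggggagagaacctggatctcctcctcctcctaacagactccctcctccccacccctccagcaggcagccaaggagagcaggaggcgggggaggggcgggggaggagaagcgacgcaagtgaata
Id2 (chr12:25096093-25096342, minus strand): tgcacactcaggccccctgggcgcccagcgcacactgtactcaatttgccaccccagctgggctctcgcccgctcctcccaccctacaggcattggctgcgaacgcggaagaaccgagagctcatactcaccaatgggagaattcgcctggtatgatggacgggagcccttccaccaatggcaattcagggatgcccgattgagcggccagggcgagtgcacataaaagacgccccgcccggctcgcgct
Rag1 (chr2:101649533-101649782, minus strand): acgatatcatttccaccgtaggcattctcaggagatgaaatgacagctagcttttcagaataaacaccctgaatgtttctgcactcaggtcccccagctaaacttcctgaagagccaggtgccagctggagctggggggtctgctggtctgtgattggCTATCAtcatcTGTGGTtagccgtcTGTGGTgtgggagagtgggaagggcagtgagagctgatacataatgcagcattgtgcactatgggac
The *Bcl11b* stretch held 1 TCF/LEF match, CTTTGAA, whose first base lies at -89 from the start, and no other match. TCF/LEF letters were found in 7.48% of all 32851 promoters of this length. The *Rag1* stretch held 2 RUNX matches, TGTGGT, at -81 and -67, and 1 GATA match on the opposite strand at -92. GATA letters were found in 26.5% and RUNX letters in 18.6% of all promoters. The *Id2* stretch, both *Tcf7* starts, the *Rag2* start and 3 of the 4 *Lef1* starts held none of these letters, and the most downstream *Lef1* start held 1 GATA match. A match is a description of these letters, and neither a bound site nor a cause.

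The libraries were checked against their labels. Levels are in CPM, a gene's counts scaled to the size of its library. Counts on genes ranged from 1400824 to 16004756 per passing pool, with a median of 3801233. *Gata3* itself was higher in GFP+ than in GFP- HCs (49.98 ± 31.4 against 6.90 ± 2.98 CPM, mean ± SD, n = 20 and 20), and 19 of the 20 GFP+ pools exceeded all GFP- pools. *Ptprc* (CD45) was 4.65 to 356 CPM in GFP+ and 298 to 643 CPM in GFP- HCs, and *Itga2b* (CD41) 9.48 to 1410 and 0.596 to 135.8 CPM. The E11.5 libraries did not all match their labels: 12 pools, 3 in each of the 4 populations, carried the markers of the other E11.5 cell type. The 6 such pools labelled MC had 949 to 7139 CPM of summed sympathetic markers, and the 6 labelled SNS had 3023 to 5273 CPM of summed mesenchymal markers. Among these pools *Gata3* was higher in those labelled GFP- than in those labelled GFP+. It was 122.6 to 395 against 16.2 to 82.2 CPM in pools labelled MC, and 44.3 to 50.1 against 9.96 to 24.3 CPM in pools labelled SNS. With all labelled pools, the E11.5 contrasts may therefore mix the GFP fractions as well as the cell types. Results on MCs and SNS are therefore given with and without these 12 pools, an alternative added after the data were seen. GFP+ HC pools also carried RNA of genes used here as markers of other cell types. Their summed sympathetic and neural crest markers were 5.71 to 2717 CPM against 2.77 to 31.3 CPM in GFP- HCs, with 13 of 13 genes reaching 10 counts in some pool and 6 of 13 in at least 50% of them. Endothelial markers were 140.3 to 772 against 67.1 to 243 CPM (10 of 10 genes in at least 50% of the pools of both fractions), higher by 1.18 on the log2 scale (adjusted p = 5.7e-05 over 40 comparisons, permutation test), against 7593 to 10240 CPM in GFP+ ECs. Mesenchymal markers were 18.4 to 976 against 3.37 to 175 CPM (8 of 10 genes in at least 50% of the GFP+ pools), and mesonephric duct markers 0.714 to 340 against 0 to 9.32 CPM (1 of 8 genes). Within blood, megakaryocyte markers were 1705 to 60489 against 144.7 to 4004 CPM (7 of 7 genes), macrophage markers had a median of 5479 against 7578 CPM and a highest sum of 13076 against 9705 CPM (11 of 12 genes) and granulocyte and mast cell markers 20.6 to 467 against 66.4 to 28053 CPM (4 of 9 genes). The summed markers of mature T, NK and B cells, 12 genes, spanned 22.8 to 202 CPM in GFP+ and 51.1 to 174 CPM in GFP- HCs, and the leading gene was *Cd79b* in both, with 1 of the 12 at 0 in every GFP+ pool. Whether the sympathetic, endothelial, mesenchymal and duct markers came from other cells or from the HCs themselves was not tested. The part of these lists in the results on HCs was not tested either. Values without the pools with high sums are given below as a description. In pools, more cells of a type and more RNA per cell cannot be told apart.

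In HCs, 5 of the 10 genes were higher in GFP+ pools: *Tcf7*, *Lef1*, *Bcl11b*, *Tox* and *Id2*. *Icos* and *Zbtb16* did not pass the threshold, and *Rag1*, *Rag2* and *Ikzf3* were too low to be tested. Differences were tested in edgeR by quasi-likelihood, p-values were adjusted (Benjamini-Hochberg) over every gene that reached 10 counts in 5 or more pools of the comparison, and a gene was called at an adjusted p under 0.01 with a log2 fold change beyond 0.1. Of 16200 genes tested, 17.1% were called higher and 9.53% lower in GFP+ HCs, and of the 7 genes tested here 5 were called higher and 0 lower. The 3 that were not tested did not enter these counts. *Bcl11b*, *Lef1* and *Tcf7* reached 10 counts in only 1, 2 and 4 of the 20 GFP- pools. They passed the filter through the GFP+ pools where they are high, so the count of 5 is not weighed against the 17.1%.

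*Tcf7*, the HMG-box factor at the start of the T cell and ILC programmes, was 0.332, 6.16 and 179 CPM at the lowest, median and highest of the 20 GFP+ HC pools, and 0, 0.143 and 25.2 CPM in the GFP- pools. It reached 10 counts in 13 of 20 and in 4 of 20 pools. The groups overlapped, with 7 GFP+ pools above every GFP- pool and all 20 above the GFP- median. A few pools stood far above the rest, since 7 of the 20 lay between 28.4 and 179 CPM and the other 13 at 10.3 CPM or below. The difference was 3.41 on the log2 scale (SE 0.78, adjusted p = 5.7e-04).

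*Lef1*, the relative of *Tcf7* that shares its DNA motif, was 0.527, 6.67 and 24.5 CPM at the lowest, median and highest of the GFP+ HC pools and 0, 0.322 and 4.69 CPM in the GFP- pools. It was more even than *Tcf7*, with 10 counts in 16 of 20 against 2 of 20 pools and 14 GFP+ pools above every GFP- pool. The difference was 3.56 (SE 0.55, adjusted p = 1.8e-06). The antisense gene *Gm43352* covers 13.75% of the exon bases of *Lef1*, and the strand setting of the counting is not stated, so reads there cannot be assigned to one of them. *Gm43352* itself had 0.104 ± 0.238 CPM in GFP+ and 0.0049 ± 0.0221 CPM in GFP- HCs (n = 20 and 20).

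*Bcl11b*, the zinc finger factor of T cell commitment, showed the clearest separation. It was 0, 8.47 and 38.8 CPM at the lowest, median and highest of the GFP+ HC pools, and 0, 0.187 and 3.73 CPM in the GFP- pools. It reached 10 counts in 16 of 20 against 1 of 20 pools, and 16 GFP+ pools lay above every GFP- pool. The difference was 4.86 (SE 0.62, adjusted p = 5.5e-08), the largest of the genes tested here.

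*Tox*, an HMG-box factor of ILC and CD4 T cell development, overlapped more. Its lowest, median and highest values were 0.516, 18.6 and 48.6 CPM in GFP+ and 0.393, 3.77 and 23.2 CPM in GFP- HCs, and 9 of 20 GFP+ pools exceeded every GFP- pool. The difference was 1.60 (SE 0.45, adjusted p = 0.0040), and it did not pass with ERCC size factors (1.52, adjusted p = 0.011) or with the study's own test (adjusted p = 0.023). The antisense gene *Gm11802* shares 3.417% of the exon bases of *Tox* and had 0.203 ± 0.432 CPM in GFP+ HCs (n = 20). *Id2*, the inhibitor of E proteins, was present in every pool. It was 122.3, 314 and 645 CPM at the lowest, median and highest of the GFP+ pools and 43.3, 126.9 and 229 CPM in the GFP- pools, and 14 of 20 GFP+ pools lay above every GFP- pool. The difference was 1.26 (SE 0.20, adjusted p = 3.6e-06).

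**Figure D1:**
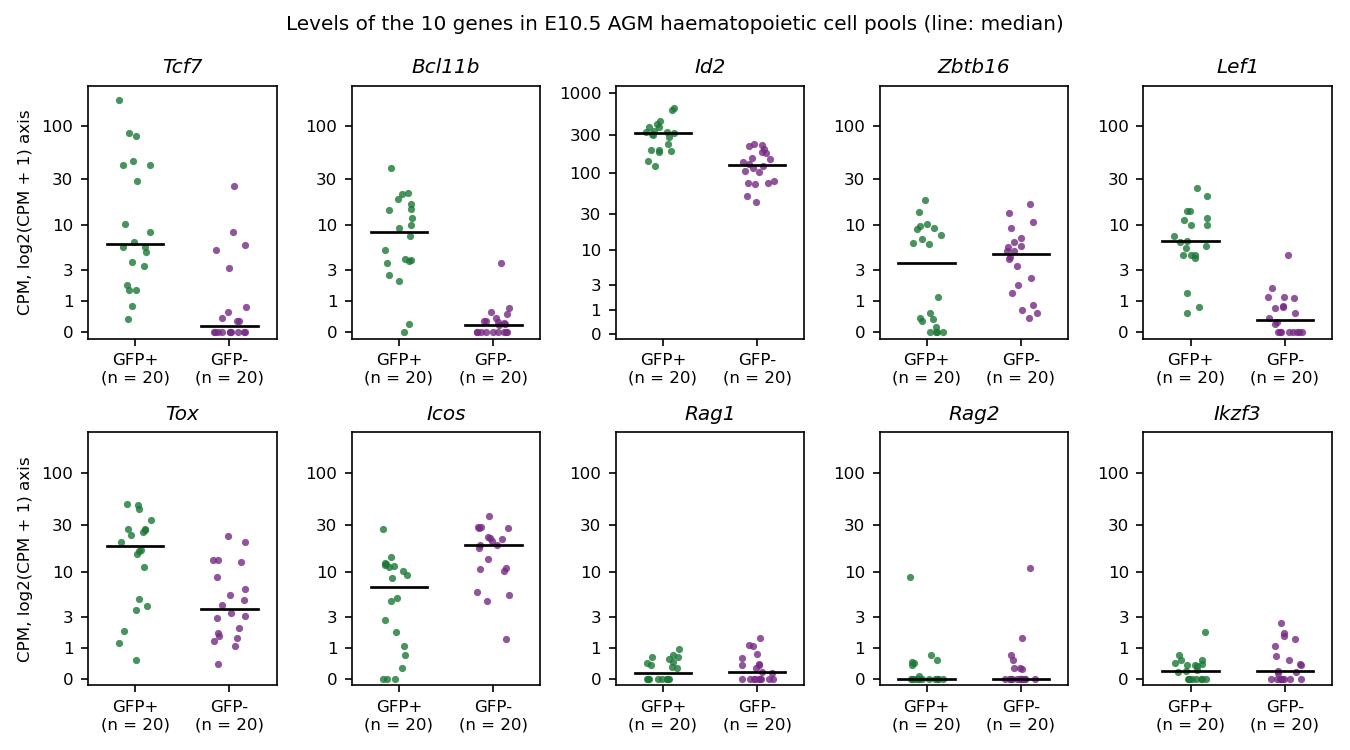
Levels of the 10 genes in the E10.5 HC pools. Each point is a pool of 20 cells (20 GFP+ in green, 20 GFP- in purple), the vertical axis is CPM drawn on a log2(CPM + 1) scale, and lines are medians; *Bcl11b* has a median of 8.47 CPM in GFP+ and 0.187 CPM in GFP- pools, while *Rag1*, *Rag2* and *Ikzf3* lie near 0 in both.

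The other tested genes lay the other way or level. *Icos* was 0, 6.87 and 27.3 CPM at the lowest, median and highest of the GFP+ HC pools and 1.43, 19.1 and 37.3 CPM in the GFP- pools, and 19 of 20 GFP+ pools were below the GFP- median. Its difference, -1.31 (95% interval -2.21 to -0.40), missed the threshold in edgeR (adjusted p = 0.022) and passed it in the study's own test (-2.17, adjusted p = 0.0032) and in edgeR without 1 GFP+ pool, the one with 27.3 CPM (-1.54, adjusted p = 0.0070). *Zbtb16*, the ILC precursor factor PLZF, was 0, 3.72 and 18.4 CPM in GFP+ and 0.392, 4.77 and 16.5 CPM in GFP- HCs. Its GFP+ pools split, with 9 of 20 at 10 counts or more and 8 of 20 below every GFP- pool, where 14 of 20 reached 10 counts. The difference of -0.08 had a 95% interval of -1.21 to 1.06 (adjusted p = 0.93 by edgeR), so a difference of up to about 1 on the log2 scale in either direction cannot be told from none.

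The recombinase genes were close to 0. *Rag1* and *Rag2* are neighbours on chromosome 2 whose 3′ ends face each other across 5752 bp. *Rag1* had at most 0.963 CPM in GFP+ and 1.49 CPM in GFP- HCs, with at least 10 counts in 1 of 20 and 0 of 20 pools. *Rag2* had a median of 0 in both, and a single pool in each stood apart, at 8.72 and 10.8 CPM. In those same pools *Rag1* was at 0 and at 0.360 CPM. The gene *B230118H07Rik* covers 6.075% of the exon bases of *Rag2* and 1.211% of those of *Rag1*, and had 39.2 ± 12.2 CPM in GFP+ HCs (n = 20). *Ikzf3* reached 10 counts in 0 of 20 GFP+ and 2 of 20 GFP- pools, with a highest value of 2.47 CPM.

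Levels of different genes were compared per kilobase of exon, since longer transcripts give more reads. In GFP+ HCs the order of mean CPM per kb was *Id2* (130), *Tcf7* (10.6), *Tox* (2.65), *Icos* (2.11), *Bcl11b* (1.303), *Lef1* (0.965) and *Zbtb16* (0.958), followed by *Rag2* (0.164), *Rag1* (0.0404) and *Ikzf3* (0.0344). In GFP- HCs it was *Id2* (54.5), *Icos* (5.21), *Zbtb16* (1.002), *Tcf7* (0.964) and *Tox* (0.866), with the other 5 between 0.0453 and 0.210. The GFP+ value of *Tcf7* was 7.54 without its highest pool, at 179 CPM, where *Tox* was 2.45. By median, GFP+ HCs had 6.16 CPM of *Tcf7* over 2.625 kb of exon and 18.6 CPM of *Tox* over 7.609 kb. The lead of *Tcf7* over *Tox* is thus one of the mean, drawn up by a few pools. The GFP- value of *Tcf7* rested on 1 pool, at 25.2 CPM, without which it was 0.509 and below *Tox* (0.751). *Rag2* rested on 1 pool in each fraction, without which it was 0.0389 and 0.0545. *Bcl11b* was the fifth of 10 in the one population and the last in the other.

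The transcription factors were seen in the same pools to different extents. Of the 20 GFP+ HC pools, 9 had at least 10 counts of all of *Tcf7*, *Lef1*, *Bcl11b* and *Tox*, 7 had 3 of them, 3 had 1 or 2, and 1 had none. Of the 20 GFP- pools, 0 had all of them, 1 had 3, 12 had 1 or 2, and 7 had none. Of these genes, *Lef1* and *Bcl11b* shared the most GFP+ pools, with 15 holding both out of 16 with each. All 13 GFP+ pools with *Tcf7* also had *Lef1*. A pool holds 20 cells and detection follows depth, so these counts do not say that the genes were in the same cell. The pool with the highest *Tcf7*, 179 CPM, had 7.56 CPM of *Bcl11b*, and the pool with the highest *Bcl11b*, 38.8 CPM, had 8.44 CPM of *Tcf7*. One GFP+ pool stood apart from the others in having almost no *Ptprc* (CD45), 4.65 CPM, with the lowest macrophage marker sum of the 20 and 60489 CPM of megakaryocyte markers. It had the lowest *Tcf7* (0.332 CPM) and *Id2* (122.3 CPM) of the 20, no *Icos* or *Zbtb16*, and 14.3 CPM of *Bcl11b* and 13.9 CPM of *Lef1*.

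**Figure D2:**
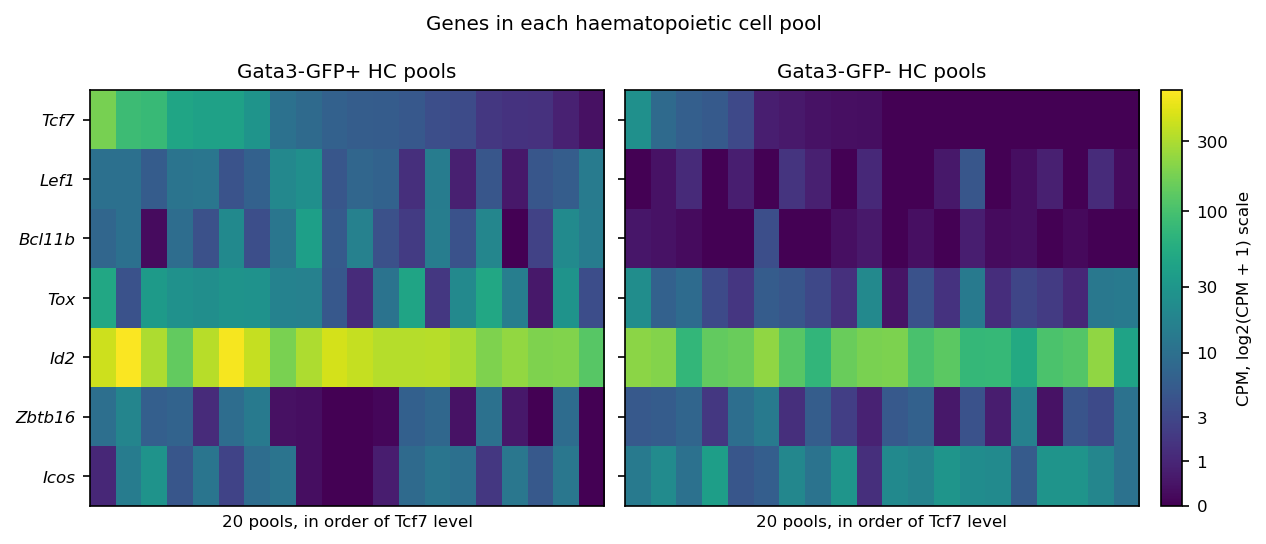
Levels of 7 genes in each HC pool. Columns are the 20 GFP+ pools (left) and 20 GFP- pools (right), each in order of falling *Tcf7*, rows are genes, and colour is CPM on a log2(CPM + 1) scale; 16 of 20 GFP+ pools and 1 of 20 GFP- pools reached 10 counts of *Bcl11b*.

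The levels of these genes in the other cell types are given beside the sums of those types' markers in the GFP+ HC pools. How much of each gene's level in HCs came with RNA of such cells was not tested. In GFP+ SNS pools, *Bcl11b* had a median of 15.02 CPM at a median of 2131 CPM of summed sympathetic markers. In GFP+ HCs it had 8.47 CPM at 172 CPM of these markers. In GFP+ MCs it had 1.42 CPM at 4484 CPM of mesenchymal markers, which were at 353 CPM in GFP+ HCs. *Tcf7* had medians of 7.03 CPM in GFP+ SNS and 0.674 CPM in GFP+ MCs, and *Lef1* 32.5 and 3.59 CPM. *Id2* was higher in both than in HCs, with medians of 818 and 528 CPM. Without the pools that went against their label these medians, in GFP+ SNS and MCs, were 16.2 and 1.15 CPM for *Bcl11b*, 8.73 and 0.367 CPM for *Tcf7*, 33.3 and 3.42 CPM for *Lef1*, and 840 and 522 CPM for *Id2*. GFP+ ECs had a median of 9086 CPM of endothelial markers, which were at 249.95 CPM in GFP+ HCs, and their medians were 13.4 CPM for *Tcf7*, 30.2 CPM for *Tox*, 5.77 CPM for *Lef1*, 293 CPM for *Id2* and 0.288 CPM for *Bcl11b*. Pools were then left out by their summed markers in counts scaled to the library before TMM, in alternatives added after the data were seen. Without the 13 GFP+ HC pools over 100 CPM of sympathetic markers on that scale, which kept 7 (1 of them over 100 CPM after TMM), all 5 genes were still called, with log2 differences of 4.60 for *Bcl11b*, 4.09 for *Tcf7*, 3.41 for *Lef1*, 1.87 for *Tox* and 1.31 for *Id2*. Without the 12 pools over 300 CPM of mesenchymal markers, which kept 8, *Bcl11b* (4.05), *Lef1* (2.97) and *Id2* (1.04) were still called, and *Tcf7* (2.72, adjusted p = 0.044 by edgeR) and *Tox* (1.64, adjusted p = 0.034) were not. *Icos* was then at -0.53 (adjusted p = 0.36 by edgeR). Without the 3 pools over 50 CPM of duct markers before TMM (4 after it) all 5 were called. Without the 9 pools over 250 CPM of endothelial markers before TMM (10 after it) all 5 were called as well, at 5.06 for *Bcl11b*, 3.89 for *Tcf7*, 3.67 for *Lef1*, 1.87 for *Tox* and 1.29 for *Id2*.

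Other genes of lymphoid pathways were read from lists (each gene may stand in more than one list), and the median difference over all genes tested in HCs was 0.05 on the log2 scale. Of 40 T cell and innate lymphoid genes, 26 were tested in HCs, of which 10 rose (38.5%, beside 17.1% of all genes), 0 fell and 16 did not pass, with a median of 1.54. The largest changes among those seen in most GFP+ pools were of *Lat*, an adaptor of the T cell receptor that platelets and mast cells also use (154.5 ± 142.2 against 8.04 ± 11.54 CPM, log2 difference 4.27), the kinase gene *Lck* (11.8 ± 8.99 against 1.016 ± 1.70 CPM, 3.52) and *Ets1* (33.3 ± 16.8 against 8.98 ± 5.43 CPM, 1.91; n = 20 and 20 for each). Among the others were *Cd3g*, *Cd4*, *Cd7*, *Zap70*, *Ccr9* and *Rora*, named after their values were seen, and these 6 reached 10 counts in 4 to 11 of the 20 GFP+ pools. Of the 16 that did not pass, *Il1rl1*, *Zbtb7b*, *Icosl*, *Il2rg*, *Ccr7*, *Ptpn22*, *Cd28* and *Nfil3* lay below 0, between -0.99 and -0.12. *Cd3d* (1.17) and *Il7r* (0.78) did not pass either. Megakaryocyte markers moved with the genes that rose, as given above, and their part was not tested.

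The partners and relatives of the genes were read in the same way. Of 15 tested relatives, 6 rose and 1 fell in GFP+ HCs, with a median of 0.74: *Tox2* (2.93), *Tcf7l1* (2.52), *Id3* (1.88) and *Bcl11a* (1.296) were the largest among those seen in most pools, *Id4* and *Ikzf4*, named after their values were seen, reached 10 counts in 7 and 8 of the 20 pools, and the one that fell was *Ikzf1* (Ikaros, -1.10). Among the 3 E protein genes, whose products *Id2* binds, *Tcf12* rose by 0.98 and the other 2 did not pass. Of 10 tested genes that join or accompany V(D)J breaks, *Xrcc5* (Ku80) rose by 2.67, *Hmgb2* fell by 0.77 and 8 did not pass, with a median of 0.13. Of 6 tested Wnt target genes, *Nkd1* (2.88) and *Axin2* (2.99) rose, *Myc* fell by 1.24 and 3 did not pass. Both *Axin2* and *Nkd1* are feedback inhibitors of the pathway, and *Axin2*, which had 10 counts in 11 of 20 GFP+ pools, is named after its value was seen. Of 6 tested B cell genes, *Bcl11a* rose, *Cd79b* fell by 0.77 and 4 did not pass, with a median of 0.08. Of 10 tested lymphoid progenitor genes, *Ccr9* rose, *Cd34* fell by 1.28, *Mef2c* fell by 0.84 and 7 did not pass, with a median of -0.17. Beside the 17.1% higher and 9.53% lower of all genes, these shares were 40% and 6.67% for the relatives, 33.3% and 16.7% for the Wnt targets, 10% and 10% for V(D)J joining, 16.7% and 16.7% for the B cell genes and 10% and 20% for the progenitor genes. In each of the last 3 lists 1 or 2 genes were called in a direction, and nothing is read from them.

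The same contrast in ECs gave another picture. Of 15073 genes tested, 19.5% were higher and 16.5% lower in GFP+ ECs, and with ERCC size factors, which moved the median of all genes by -0.70, 951 were higher and 5685 lower. *Tcf7*, *Lef1*, *Tox* and *Id2* could be tested, of which 2 rose, 1 fell and 1 did not pass. *Tox* was 11.7, 30.2 and 69.5 CPM at the lowest, median and highest of 19 GFP+ EC pools and 1.47, 6.09 and 13.9 CPM in 20 GFP- pools, and 18 of 19 lay above every GFP- pool. It rose by 2.29 (SE 0.27, adjusted p = 1.6e-09 by edgeR). *Lef1* went the other way from HCs, with 0, 5.77 and 22.5 CPM in GFP+ and 12.4, 25.9 and 45.9 CPM in GFP- ECs, and 16 of 19 GFP+ pools lay below every GFP- pool. It fell by 2.01 (SE 0.36, adjusted p = 9.1e-06 by edgeR).

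*Tcf7* in ECs was 0.463, 13.4 and 43.3 CPM against 2.77, 9.18 and 18.1 CPM at the lowest, median and highest pool, and the difference of 0.62 (95% interval -0.01 to 1.24) did not pass (adjusted p = 0.11 by edgeR). *Id2* was 130, 293 and 502.5 CPM against 72.1, 172 and 305 CPM, and was 0.75 higher (SE 0.14, adjusted p = 3.9e-05 by edgeR). With ERCC size factors the *Id2* difference was 0.09 (adjusted p = 0.68), and relative to the median of all genes it was 0.65 with TMM and 0.69 with ERCC size factors. *Tox* and *Lef1* were called with ERCC size factors as well, at 1.65 and -2.70. *Bcl11b* reached 10 counts in 3 of 19 GFP+ and 1 of 20 GFP- EC pools, *Icos* in 0 and 1, and *Zbtb16*, *Rag1*, *Rag2* and *Ikzf3* in none.

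**Figure D3:**
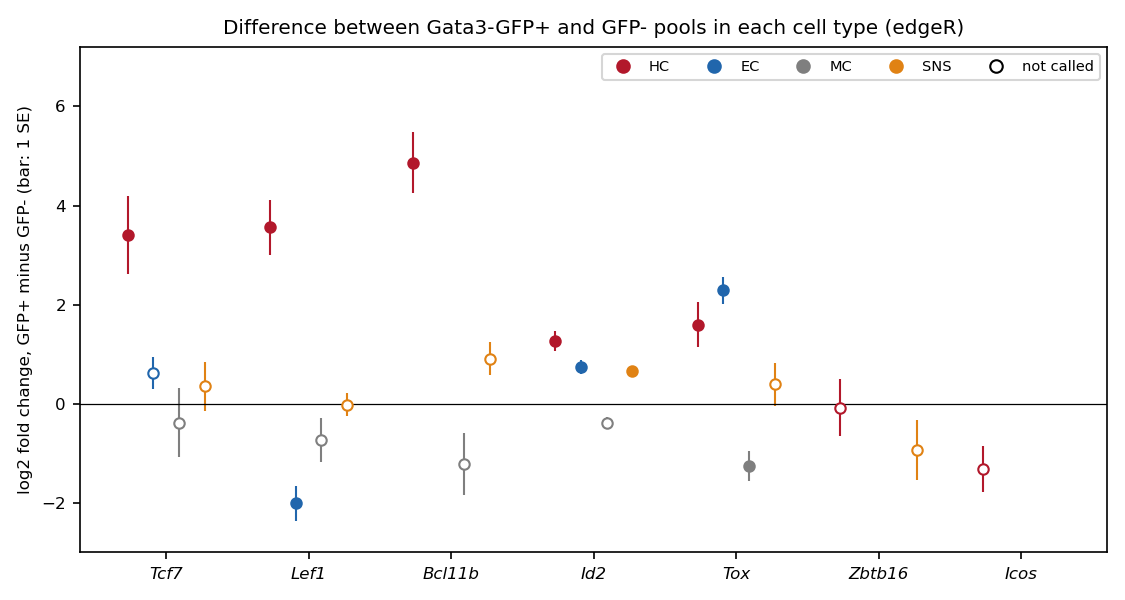
Difference between GFP+ and GFP- pools of each cell type for the 7 genes tested in HCs. The vertical axis is the log2 fold change by edgeR with all labelled pools, bars are 1 SE, filled points passed the threshold and open points did not, and a missing point was below the filter; *Lef1* is at 3.56 in HCs and -2.01 in ECs.

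Whether the GFP difference itself differed between HCs and ECs was tested as an interaction in one fit of the 8 populations, in which 13.9% of 20080 genes were called higher in HCs than in ECs and 8.15% lower. Of the 7 genes tested, 3 were called: the difference in HCs minus that in ECs was 5.50 (SE 0.60) for *Lef1*, 4.23 (SE 0.87) for *Bcl11b* and 2.77 (SE 0.83) for *Tcf7*. *Bcl11b*, *Icos* and *Zbtb16* were below the filter in ECs alone and entered this fit through the populations where they are high. *Bcl11b* had 95 counts in all in GFP+ and 61 in GFP- EC pools, so its interaction rests on few reads there. *Id2* (0.48, 95% interval 0.07 to 0.88), *Tox* (-0.72, -1.75 to 0.30), *Icos* (0.56, -0.73 to 1.85) and *Zbtb16* (-1.05, -2.89 to 0.79) did not pass. With ERCC size factors, which moved the median of all genes by 0.66 and gave 5907 higher and 529 lower in place of 2796 and 1636, the *Id2* interaction was 1.15 and passed.

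HCs were also compared with ECs within each GFP fraction. Of 20080 genes, 26.3% were higher and 17.6% lower in GFP+ HCs than in GFP+ ECs, and 3 of the 7 genes were called higher: *Bcl11b* by 2.79 (SE 0.59) on the log2 scale, *Icos* and *Zbtb16*. *Icos* had 8 and *Zbtb16* 16 counts in all over the 19 GFP+ EC pools, with no pool at 10 counts, so the size of their difference is not given. *Tcf7* (0.94, 95% interval -0.19 to 2.08), *Lef1* (0.33, -0.43 to 1.09), *Tox* (-0.66, -1.39 to 0.06) and *Id2* (0.04, -0.25 to 0.33) did not pass, and *Id2* was called at 0.76 with ERCC size factors, which moved the median of all genes by 0.69 and gave 9329 higher and 1507 lower in place of 5287 and 3534. In the GFP- fraction, with 18.4% of genes higher and 18.6% lower in HCs, *Zbtb16* and *Icos*, with 5 and 30 counts in all over the 20 EC pools, were again called higher in HCs, while *Lef1* (-5.17, SE 0.47), *Tcf7* (-1.82, SE 0.60) and *Id2* (-0.44, SE 0.15) were lower. With ERCC size factors *Tcf7* (-1.85, adjusted p = 0.013 by edgeR) and *Id2* (-0.39, adjusted p = 0.078) did not pass. *Icos* and *Zbtb16* were thus higher in HCs than in ECs in either fraction, and *Icos* did not exceed 4.03 CPM in any EC pool.

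At E11.5 few genes differed between the GFP fractions as labelled, 2.21% higher and 2.15% lower of 16026 tested in MCs and 2.01% higher and 1.85% lower of 16143 in SNS. With ERCC size factors 72.4% of the 381 calls in MCs were of higher genes, in place of 50.7% of 698, and 83.3% of the 1013 calls in SNS, in place of 52.1% of 624. In MCs, 5 of the genes were tested and *Tox* was lower in GFP+ pools: it was 0.357, 10.8 and 25.5 CPM at the lowest, median and highest of 20 GFP+ pools and 2.70, 25.9 and 61.8 CPM in 17 GFP- pools, and fell by 1.25 (SE 0.30, adjusted p = 0.0053 by edgeR). It was not called in one fit of the 8 populations (-1.24) or in the study's own test (-1.29). The groups overlapped, with 10 of the 17 GFP- pools above every GFP+ pool. *Id2* was -0.38 (adjusted p = 0.015 by edgeR), *Bcl11b* -1.21, *Lef1* -0.73 and *Tcf7* -0.38, none past the threshold. Without the 6 MC pools that went against their label, *Tox* fell by 1.296 (adjusted p = 4.9e-05) and *Lef1* fell by 1.56 (adjusted p = 1.9e-04), from 4.32 to 20.7 CPM in 14 GFP- pools to 1.40 to 10.7 CPM in 17 GFP+ pools. In those fits 1586 of 15226 genes were called, against 698 of 16026 with all pools.

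In SNS, 6 of the genes were tested and *Id2* was higher in GFP+ pools. It was 611, 818 and 1006 CPM at the lowest, median and highest of 18 GFP+ pools and 348, 486 and 741 CPM in 19 GFP- pools, and 12 of 18 lay above every GFP- pool. The difference was 0.66 (SE 0.09, adjusted p = 4.0e-06 by edgeR). *Bcl11b* was 0.91 higher with all pools (adjusted p = 0.089 by edgeR) and 0.93 higher without the 6 SNS pools that went against their label (adjusted p = 0.0041), where it was 10.03 to 28.5 CPM in 15 GFP+ and 4.10 to 28.6 CPM in 16 GFP- pools. *Lef1* was level at -0.02 (95% interval -0.48 to 0.44), but its sign turned with ERCC size factors (0.36), which moved the median of all genes in SNS by 0.35. *Tcf7* (0.35), *Tox* (0.39) and *Zbtb16* (-0.93) did not pass.

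The GFP difference in HCs was also set against that in MCs and SNS, where the cell type and the embryonic day cannot be told apart. Against MCs, 13.5% of 20080 genes were called higher and 3.86% lower in HCs, and 5 of the 7 genes tested here were: *Bcl11b* (6.06), *Lef1* (4.25), *Tcf7* (3.78), *Tox* (2.83) and *Id2* (1.63). Against SNS, with 13.4% of genes called higher and 3.59% lower, *Bcl11b* (3.95), *Lef1* (3.56) and *Tcf7* (3.07) were called. *Tcf7* against SNS did not pass with ERCC size factors (2.86, adjusted p = 0.011 by edgeR), which moved the median of all genes by -0.40 and gave 1716 higher and 1432 lower in place of 2692 and 720. All 8 were also called without the 12 pools that went against their label. The tests against ECs, MCs and SNS all hold the same difference in HCs, and the genes called are among the 5 called there. Their counts are therefore not independent and are not weighed against the shares of all genes.

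*Lef1* and *Bcl11b* were thus not limited to blood, and the order of the levels over the 8 populations differed from gene to gene. Mean *Bcl11b* was 15.4 ± 7.69 CPM in GFP+ SNS (n = 18), 10.6 ± 9.56 in GFP+ HCs, 8.23 ± 6.07 in GFP- SNS, 5.76 ± 6.15 and 2.48 ± 2.98 in GFP- and GFP+ MCs, 1.57 ± 2.88 and 0.953 ± 1.55 in GFP+ and GFP- ECs, and 0.368 ± 0.821 in GFP- HCs. No neighbours in this order differed in edgeR. Without the pools that went against their label the order was the same, with means of 17.7 and 9.24 CPM in GFP+ and GFP- SNS and of 3.39 and 1.61 CPM in GFP- and GFP+ MCs. *Lef1* ran from 30.97 ± 16.99 CPM in GFP- SNS, 30.5 ± 9.60 in GFP+ SNS and 26.6 ± 10.2 in GFP- ECs through 16.2 ± 11.1 and 9.76 ± 14.8 in GFP- and GFP+ MCs to 8.48 ± 6.21 in GFP+ HCs, 6.74 ± 6.36 in GFP+ ECs and 0.680 ± 1.08 in GFP- HCs. Of its neighbours, the last pair differed, by 3.20 on the log2 scale (adjusted p = 2.1e-10 by edgeR). The GFP+ MC mean of *Lef1* rested on 3 pools that went against their label. Without such pools it was 3.95 ± 2.50 CPM (n = 17), below GFP+ HCs and GFP+ ECs, and the step from there to GFP- HCs was called (2.41, adjusted p = 1.7e-08 by edgeR). The other means were then 35.6 and 33.8 CPM in GFP- and GFP+ SNS and 11.6 CPM in GFP- MCs.

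By its mean, *Tcf7* was highest in GFP+ HCs (27.7 ± 43.99 CPM), then in GFP+ and GFP- ECs (14.5 ± 11.2 and 9.15 ± 4.26), GFP+ and GFP- SNS (7.61 ± 5.69 and 5.98 ± 5.25), GFP- MCs (2.71 ± 2.67), GFP- HCs (2.53 ± 5.87) and GFP+ MCs (2.08 ± 3.25), and no neighbours differed. By its median it was 6.16 CPM in GFP+ HCs, below 13.4 and 9.18 CPM in GFP+ and GFP- ECs and 7.03 CPM in GFP+ SNS. Its GFP- HC mean was 1.34 CPM without the pool at 25.2 CPM. Without the pools that went against their label its means were 9.02 and 6.97 CPM in GFP+ and GFP- SNS and 2.24 and 1.18 CPM in GFP- and GFP+ MCs. *Id2* was highest outside blood, from 812 ± 130 CPM in GFP+ SNS, 741 ± 135.6 and 573 ± 155.6 in GFP- and GFP+ MCs and 514 ± 111.7 in GFP- SNS to 317 ± 140 in GFP+ HCs, 308 ± 90.04 and 179.5 ± 60.05 in GFP+ and GFP- ECs and 132.9 ± 58.8 in GFP- HCs. The steps from GFP- SNS to GFP+ HCs, from GFP+ to GFP- ECs and from there to GFP- HCs were each called in edgeR, and the other 4 were not. Its order and these 3 calls were the same without the pools that went against their label. *Tox* was highest in GFP+ ECs (31.9 ± 15.01 CPM), followed by GFP- MCs (27.4 ± 13.9), GFP+ HCs (20.1 ± 15.4) and GFP+ MCs (11.6 ± 6.45), with the other 4 populations between 5.602 and 7.33 and no neighbours called. Without the pools that went against their label it was 31.2 and 12.7 CPM in GFP- and GFP+ MCs and 6.56 and 3.66 CPM in GFP+ and GFP- SNS.

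*Icos* and *Zbtb16* had their highest mean levels in HCs, but for *Zbtb16* the step from GFP+ HCs to GFP- SNS was not called. Mean *Icos* was 17.9 ± 9.76 CPM in GFP- and 7.25 ± 6.95 CPM in GFP+ HCs and at most 0.517 CPM in the other 6 populations, and the step out of blood, to GFP- ECs with 30 counts in all, was called (adjusted p = 3.7e-08 by edgeR). Mean *Zbtb16* was 5.30 ± 4.44 and 5.06 ± 5.55 CPM in GFP- and GFP+ HCs, 2.54 ± 2.30 and 1.31 ± 1.36 CPM in GFP- and GFP+ SNS, 0.777 and 0.572 CPM in MCs and 0.181 and 0.0953 CPM in ECs, and no neighbours differed. Without the pools that went against their label it was 2.99 and 1.53 CPM in GFP- and GFP+ SNS and 0.268 and 0.605 CPM in GFP- and GFP+ MCs. Over the 7 tested genes, 5 of 49 neighbouring pairs were called with all pools and 6 of 49 without the 12 pools that went against their label, where the step of *Lef1* from GFP- ECs to GFP- MCs (1.20) was called as well and the lowest neighbours of several genes changed places. *Rag1*, *Rag2* and *Ikzf3* had means of at most 0.718 CPM in each population.

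**Figure D4:**
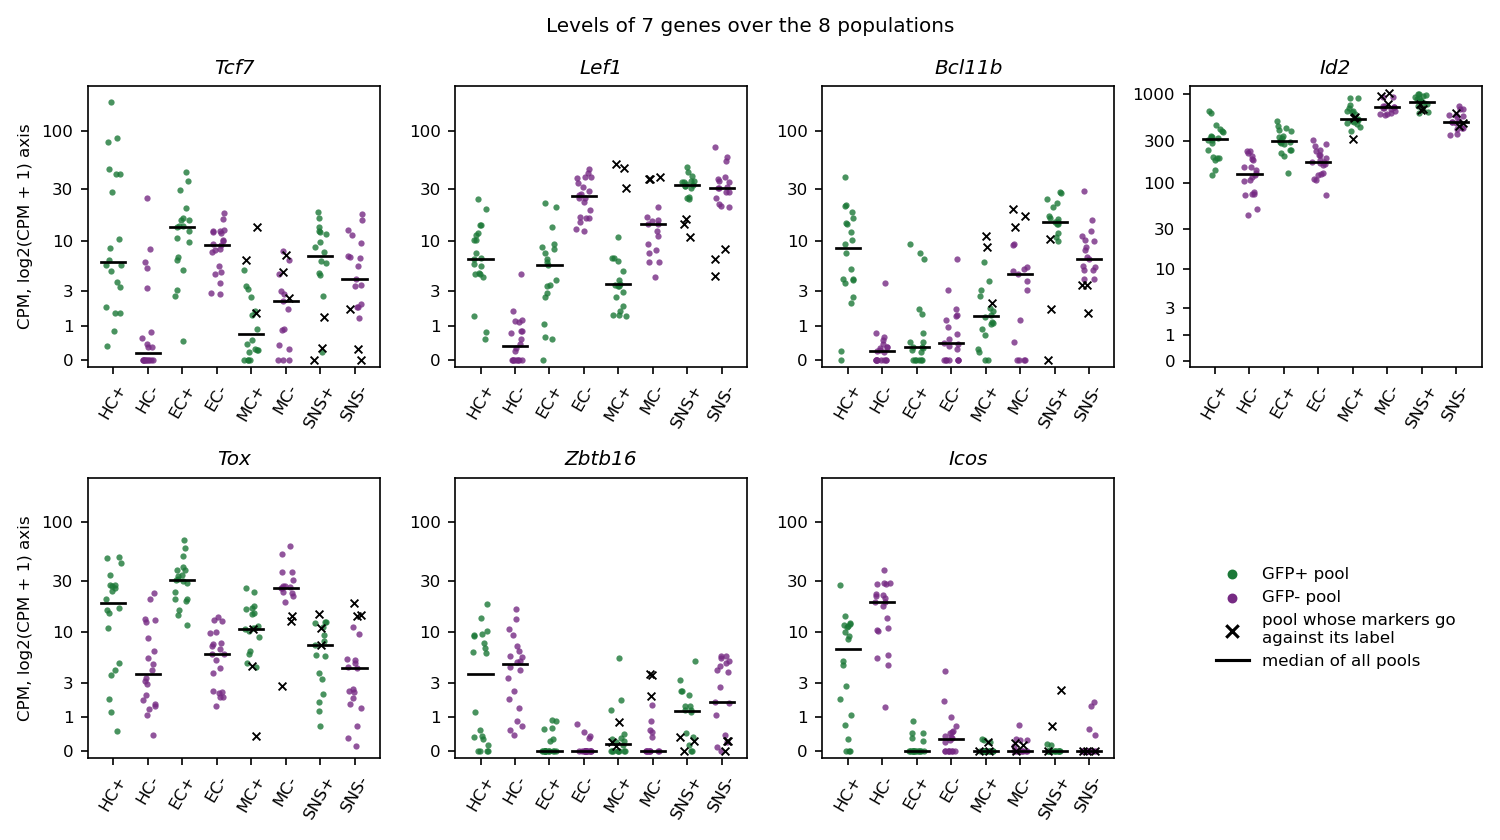
Levels of 7 genes over the 8 populations. Points are pools (green GFP+, purple GFP-, crosses the 12 E11.5 pools whose markers go against their label), the vertical axis is CPM on a log2(CPM + 1) scale and lines are medians of all pools; *Lef1* in the crossed MC pools lies with the SNS pools, and *Icos* is near 0 outside HCs.

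The genes most alike in pattern were named by Pearson's r of log2(CPM + 1) over all passing pools among 16435 genes, given as a description, since the pools share their population and depth. *Icos* was closest to *Gm26740* (0.910), *Csf2rb* (0.905) and *Clec7a* (0.899), *Id2* to *Clip3* (0.839), *Rbms3* (0.831) and *6330403K07Rik* (0.826), *Lef1* to *Crmp1* (0.812), *Pcbp4* (0.795) and *Fscn1* (0.775), and *Bcl11b* to *Tfap2b* (0.793) and *Tbx3* (0.751). The others had no gene so near. *Tcf7* was closest to *Ppp1r16b* (0.637), *Gm16104* (0.566) and *Tspan13* (0.539), *Zbtb16* to *Ptpro* (0.628), *Ifi30* (0.623) and *Ly6e* (0.622), and *Tox* to *Bcl11a* (0.624), *Pde3a* (0.591) and *P4ha3* (0.584). *Rag1*, *Rag2* and *Ikzf3* had 10 counts in too few pools to be read in this way.

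In the GENCODE annotation of GRCm38, *Tcf7* lies on chromosome 11 from 52252371 to 52283014 (ENSMUSG00000000782), *Lef1* on chromosome 3 from 131110471 to 131224356 (ENSMUSG00000027985), *Bcl11b* on chromosome 12 from 107910403 to 108003602 (ENSMUSG00000048251) and *Id2* on the same chromosome from 25093799 to 25097140 (ENSMUSG00000020644). *Tox* lies on chromosome 4 from 6686353 to 6991557 (ENSMUSG00000041272), *Zbtb16* on chromosome 9 from 48654297 to 48836222 (ENSMUSG00000066687), *Icos* on chromosome 1 from 60977927 to 61000320 (ENSMUSG00000026009) and *Ikzf3* on chromosome 11 from 98464902 to 98546031 (ENSMUSG00000018168). *Rag1* spans 101638282 to 101649501 (ENSMUSG00000061311) and *Rag2* 101624718 to 101632529 (ENSMUSG00000032864) on chromosome 2. Counts cover the exons of each gene, and *Tcf7*, *Bcl11b*, *Id2*, *Zbtb16*, *Icos* and *Ikzf3* share no exon bases with another gene.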

How the data were processed

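Pools of 20 sorted cells were profiled by Smart-seq2. The authors deposited one table of raw counts per gene, 46078 genes and 92 ERCC spike-in RNAs, for 160 pools. The submitters' processing notes name GSNAP, HTSeq (0.5.3p3) and mm10, whereas the study's text names STAR and Ensembl 81. Which holds for these counts is not settled here, and the strand setting of the counting is not given in the sources used here. Identifiers were paired with symbols by GENCODE M21 (45143 matched).

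Following the study, pools were kept with over 500000 counts, over 20% of reads on genes, under 20% mitochondrial and under 20% ERCC reads, and over 8000 genes of high coverage, read here as at least 10 counts (the lowest kept pool had 9888). Reads in the rows that name no gene (a median of 51.2% not on a gene) stayed out of library sizes and tests. Passing pools held a median of 12678 genes with at least 10 counts, so low genes such as *Rag1* rest on a few reads. No 2 pools had identical values.

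CPM used TMM-scaled library sizes. GFP fractions were compared within a cell type by edgeR's quasi-likelihood test (robust), and populations and interactions in one fit of the 8, with Benjamini-Hochberg adjustment. Marker sums were described and compared between GFP fractions by a permutation test. The edgeR test of GFP+ against GFP- HCs was run on simulated data first, and the other tests were not. The rule for the genes named takes the 10 genes, *Gata3* and sorting markers, up to 4 examples of each list (the largest called changes among genes seen at 10 counts or more in 75% of the higher population's pools) and the 3 genes most alike to each. Some genes that the rule or the lists hold are not reported here. The 10 genes, the lists and the rule were chosen with earlier results of these data known. Alternatives were DESeq2 and ERCC size factors, other filters and thresholds, all pools, DESeq2's Wald test, the study's own test (counts normalized by scran, then scanpy's variance-overestimating t-test), other fits, leaving out each HC pool, and sets of pools left out after the data were seen, by marker sums before TMM scaling. Intervals are 95%, from the SE. Software was R 4.3.3, edgeR 4.0.16, DESeq2 1.42.0, scran 1.30.0, scanpy 1.11.5 and Python 3.11.15 with matplotlib 3.10.9, scipy 1.17.1, pandas 2.3.3 and numpy 2.4.6.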

Additional observations from a re-analysis of the deposited data

Results flagged for a closer look

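The results below stand out because the difference between GFP+ and GFP- pools differed between HCs and another cell type in a test of that difference itself (edgeR's quasi-likelihood test, log2 scale, adjusted over 20080 genes). Between HCs and ECs it was larger in HCs by 5.50 for *Lef1*, 4.23 for *Bcl11b* and 2.77 for *Tcf7*. *Bcl11b* was below the filter in ECs alone, with 95 and 61 counts in all in GFP+ and GFP- pools, so its value rests on few reads there. *Lef1* is the one of these with opposite calls, higher in GFP+ HCs and lower in GFP+ ECs.

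Between HCs and MCs the difference was larger in HCs by 6.06 for *Bcl11b*, 4.25 for *Lef1*, 3.78 for *Tcf7*, 2.83 for *Tox* and 1.63 for *Id2*. Without the 6 MC pools whose markers went against their label the values, in the same order, were 5.92, 5.08, 4.24, 2.89 and 1.51, all called. Between HCs and SNS it was larger in HCs by 3.95 for *Bcl11b*, 3.56 for *Lef1* and 3.07 for *Tcf7*. HCs were taken at E10.5 and MCs and SNS at E11.5, so cell type and embryonic day cannot be told apart in these. Each of the comparisons holds the same difference in HCs, so they are not independent of one another or of the calls in HCs.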

How the results depend on the processing

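Of the summary counts recomputed under an alternative, 100 stayed within 1.5 times and 11 moved. In HCs, 5 genes were called, and 2 were with a filter of at least 10 counts in at least 20 pools, where *Bcl11b*, *Lef1* and *Tcf7* were no longer tested, and 3 without the pools over 300 CPM of mesenchymal markers (limits before TMM scaling). Leaving out each of the 40 HC pools in turn gave 5 to 6 calls, and *Zbtb16* then ran from -0.30 to 0.10. In MCs, 1 gene was called, against 0 in one fit of the 8 populations and in the study's own test, and 2 without the pools that went against their label or at an adjusted p under 0.05. In SNS, 1 was called, against 2 without those pools and 0 with a log2 fold change of at least 1. In GFP- HCs against ECs, 5 were called and 3 with ERCC size factors. Over the 10 genes and 20 pools, at least 10 counts were found in 52.5% of the 200 pairs of gene and pool in GFP+ and 38% in GFP- HCs, and at least 1 count in 80.5% and 71.5%. Over all genes, the median pool had 12583 genes with at least 10 counts in GFP+ and 12073 in GFP- HCs. The pairs mix genes that went in opposite directions, and detection follows depth, so nothing is read from them.

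Values that changed sign were all below the threshold. They were *Zbtb16* in HCs (0.27 without the pools over 100 CPM of sympathetic and 0.16 without those over 250 CPM of endothelial markers), *Lef1* in SNS (0.36 with ERCC size factors, 0.14 in the study's own test), *Zbtb16* in HCs minus MCs (-1.13) and *Icos* in HCs minus SNS (1.06) without the pools that went against their label, and *Id2* in GFP+ HCs against ECs (-0.0044 with DESeq2 size factors). Over all genes, 4307 were called in HCs, and 2427, 1488 and 2560 without the pools over the sympathetic, mesenchymal and endothelial limits. In MCs 698 were called, 1586 without the pools that went against their label, 1130 in one fit and 381 with ERCC size factors, and in SNS 624, 1631 and, with ERCC size factors, 1013. The study's own test gave 2290 higher and 2412 lower in HCs. Apart from the changes in the genes tested, the cause of these changes was not tested. No paired analysis was possible because the columns of the table carry no pool number.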

Other observations

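The lymphoid lists were also read in ECs, where the median difference over all genes tested was 0.10 on the log2 scale and 19.5% of all genes were called higher and 16.5% lower. Of 10 tested T cell and innate lymphoid genes, 4 rose and 4 fell in GFP+ ECs, and 2 did not pass, with a median of -0.47. *Rora* (2.76) and the cytokine receptor gene *Il2rg* (1.40) rose, whereas *Lck* fell by 2.33 and *Lat* fell by 1.55, both of which rose in GFP+ HCs. Whether these changes differed between ECs and HCs was not tested. Of 12 tested relatives, 8 rose (66.7%) and 0 fell, with a median of 1.16, led by *Tox2* (4.72), *Ikzf2* (Helios, 4.28), *Bcl11a* (2.80) and *Id1* (1.39).

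Of 6 tested Wnt target genes in ECs, *Lgr5* rose by 4.82, *Ccnd1* fell by 3.35, *Nkd1* fell by 2.44, *Myc* fell by 1.85 and 2 did not pass, with a median of -1.26. Of 3 E protein genes, *Tcf3* (0.44) and *Tcf12* (0.38) rose and *Tcf4* fell by 0.68. Of 10 V(D)J joining genes, *Hmgb2* fell by 1.20, *Hmgb1* fell by 0.83 and 8 did not pass, with a median of -0.07 and shares of 0% higher and 20% lower, from which nothing is read. Of 5 tested B cell genes, *Bcl11a* and *Vpreb1* rose and *Ebf1* fell by 0.64, with a median of 0.38. Of 6 lymphoid progenitor genes, *Satb1* (1.34), *Cd34* (1.23) and *Cd27* rose and *Mef2c* fell by 0.66, with a median of 1.29. *Vpreb1* and *Cd27* are named after their values were seen. With ERCC size factors the median of all genes in ECs moved by -0.70, and small changes here are read against that shift.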
